A study of Mus musculus with 6 samples.

Results

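The nuclear genes of the respiratory chain were followed in RAW 264.7 cells, an established mouse macrophage line grown from a virus-induced tumour. They were defined by name, as protein-coding genes of the deposited table whose symbols begin with Nduf, Uqcr, Atp5, Cox4, Cox5, Cox6, Cox7 or Cox8, together with Sdha, Sdhb, Sdhc, Sdhd and Cyc1. This gave 95 genes of the 22046 protein-coding genes and 54532 genes listed in all. By complex they were 38 genes of complex I, 8 Ndufaf genes for the assembly of complex I, 4 of complex II, 9 of complex III, 18 of complex IV and 18 of complex V. After the filter on low counts 89 of them were tested, among 13156 genes of any kind. The 6 genes not tested were Ndufa4l2, Cox6b2, Cox7b2, Cox8b, Cox8c and the second of the 2 entries named Atp5o.

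Cells of this single line were kept for 3 days on zinc carrying a calcium phosphate (CaP) coating, on zinc alloyed with manganese under that coating, or on zinc alloyed with manganese and lithium under it. The groups are named CaP Zn, CaP Zn0.8Mn and CaP Zn0.8Mn0.1Li, with 2 RNA libraries each, and all carry the coating and zinc. They are called the zinc, manganese and lithium groups below. The study set out to learn how such implant metals bear on macrophage polarization in bone-forming surroundings. No group without metal was analysed here, and the labels do not say whether the 2 libraries of a group were separate cultures, so p-values measure the spread between libraries, which may be technical.

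The respiratory chain sits in the inner mitochondrial membrane. Complexes I and II pass electrons from NADH and succinate to ubiquinone, complex III hands them to cytochrome c, complex IV gives them to oxygen, and complex V, the ATP synthase, makes ATP from the proton gradient. Most subunits are encoded in the nucleus and imported, while a few central ones are encoded in the mitochondrial genome. In macrophages, inflammatory activation is known to shift energy supply toward glycolysis, and repair-associated states to rely more on oxidation.

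The libraries held 14944070 to 17709290 counts each, and the limit set by 3 counts lay between 0.161 and 0.198 CPM (counts relative to TMM-scaled library size). Such limits cover counting error only. The library CaP Zn0.8Mn replicate 1, differed from the remaining 5, with 7.88% of its counts on mitochondrial genes against 1.82% to 2.15% elsewhere. The comparisons below that rest on it are therefore given with and without it. Of the macrophage markers all 10 were found, 0 of them at 0 in every library, and their summed level was 9608 CPM in that library and 11104 to 16752 CPM in the others. The 9 tested macrophage markers had a median difference of 0.51 (log2) there, with 5 higher and 4 lower. The 4 epithelial markers were at 0 throughout, and so were 3 of 8 fibroblast or osteoblast markers. The latter list summed to 8.59 CPM in that library and 13.8 to 17.4 CPM in the others. Of those 8 markers, only 1 passed the filter on low counts. Summed endothelial, T cell, B cell and muscle markers stayed at or below 0.452 CPM in each library. The part of any such cells in the results was not tested. In bulk RNA, fewer cells of a type and less RNA per cell cannot be told apart.

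The genes are scattered over 19 chromosomes, and the promoters of many are known to share binding sites for a few activators, NRF1, the ETS-family protein GABPA and YY1. RefSeq promoter windows (GRCm38.p6, from 250 bases before the start to 50 after it) were found for 74 of the 95 genes. Searched on both strands, the 10-base NRF1 palindrome was held by 7 of the 74 (9.46%), against 1.07% of all 27025 genes with such a window. With its sixth base free, the same motif, which includes the palindrome, was held by 19 (25.7%), against 5.19%. The ETS core CCGGAAG was held by 18 (24.3%, against 9.93%) and the YY1 core AAGATGG by 11 (14.86%, against 7.28%). Windows with the freer NRF1 motif or CCGGAAG numbered 33, and 4 held both, those of Sdhd, Cox6a1, Atp5h and Atp5k. The 27025 genes were neither limited to those tested nor matched for base content. The higher shares are therefore not shown to be particular to the respiratory chain. A match is a description of letters and not evidence of a bound site.

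For 5 of the 19 genes with the freer NRF1 motif, the match lay in a stretch upstream of the start that overlapped no annotated coding or untranslated base of any gene. The stretches of 4 are shown, 1 from each complex that had any, to set the same letters side by side in genes of different complexes. Capitals mark this motif on either strand, and all run 5′ to 3′ on the gene's own strand.
Ndufs5: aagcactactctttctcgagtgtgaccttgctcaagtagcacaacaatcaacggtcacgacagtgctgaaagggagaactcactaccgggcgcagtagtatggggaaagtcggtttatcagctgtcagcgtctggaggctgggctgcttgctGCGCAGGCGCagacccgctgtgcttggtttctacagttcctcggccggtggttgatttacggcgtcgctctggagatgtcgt
Ndufaf4: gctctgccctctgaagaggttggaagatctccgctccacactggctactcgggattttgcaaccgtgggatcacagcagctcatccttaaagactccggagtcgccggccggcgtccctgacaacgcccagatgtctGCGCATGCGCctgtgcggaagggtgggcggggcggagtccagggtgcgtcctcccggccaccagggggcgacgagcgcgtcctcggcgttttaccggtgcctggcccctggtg
Cox6a1: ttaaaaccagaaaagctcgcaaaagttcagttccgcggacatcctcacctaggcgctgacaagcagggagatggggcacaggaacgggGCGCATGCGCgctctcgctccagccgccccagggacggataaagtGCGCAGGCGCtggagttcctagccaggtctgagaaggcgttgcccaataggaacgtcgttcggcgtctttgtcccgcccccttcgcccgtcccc
Atp5h: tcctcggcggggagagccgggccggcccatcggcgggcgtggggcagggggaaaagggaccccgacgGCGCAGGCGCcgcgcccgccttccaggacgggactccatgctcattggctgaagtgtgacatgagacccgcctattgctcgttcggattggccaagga

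In GRCm38.p6 these stretches are chr4:123718203-123718436 (minus strand) for Ndufs5, chr4:24897833-24898082 (plus strand) for Ndufaf4, chr5:115348982-115349208 (minus strand) for Cox6a1 and chr11:115419963-115420127 (minus strand) for Atp5h. The first base of the match lay 98 bases before the start in Ndufs5, 113 in Ndufaf4 and 141 in Atp5h. Cox6a1 had 2 matches, beginning 162 and 117 bases before the start. Ndufs5 encodes an accessory subunit of complex I, Ndufaf4 a factor that assembles that complex, Cox6a1 the ubiquitous form of a small complex IV subunit, and Atp5h the d subunit of the ATP synthase stalk.

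Levels between genes were compared as FPKM, which divides counts by gene length, taking the median of the 5 libraries other than CaP Zn0.8Mn replicate 1. Complex IV held the 2 most abundant transcripts. Cox8a, a small structural subunit, was at 758 FPKM, Cox6a1 at 572, Cox4i1, the common form of the subunit that regulates the enzyme by ATP, at 417, Cox6b1, which joins the monomers of the enzyme, at 334, and Cox7a2l, linked to supercomplex assembly, at 326. Atp5b (458 FPKM) and Atp5a1 (361 FPKM), the catalytic beta and structural alpha subunits of the ATP synthase head, led complex V. In all, 34 of the 89 tested genes stood at or above 100 FPKM.

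Complex III ranged from 70.6 FPKM for Uqcrc1, a core protein, to 213 for Uqcr10, a small subunit, with Cyc1, which carries cytochrome c1, at 102 and Uqcrfs1, the Rieske iron-sulfur protein, at 138. Complex II ranged from 55.2 for Sdhc to 201 for Sdhd, the 2 membrane anchors, with the flavoprotein Sdha at 78.4 and the iron-sulfur subunit Sdhb at 83.0. Complex I ran from 1.58 FPKM for Ndufb2 to 204 for Ndufa2, both accessory subunits. Its assembly genes ran from 4.31 for Ndufaf2 to 18.4 for Ndufaf8. FPKM rests on the deposited gene length, which is 5628 bases for Ndufb2 and 545 for Cox8a, so the order of genes also depends on that length.

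Where a subunit has a common and a tissue-restricted form, the common one was far more abundant. Cox4i1 stood at 417 FPKM and its hypoxia-linked counterpart Cox4i2 at 1.85. Cox6a1 stood at 572 and the heart and muscle form Cox6a2 at 20.7, while Cox7a2 stood at 186 and the muscle form Cox7a1 at 6.62. Ndufa4, now known as a complex IV subunit, was at 112 FPKM and its hypoxia-inducible relative Ndufa4l2 at 0.174. The c subunit, which forms the rotor ring of the ATP synthase, is made from 3 genes with the same mature protein. Atp5g2 was at 156 FPKM, Atp5g3 at 86.8 and Atp5g1 at 10.1. The plot of levels by complex shows both the spread within each complex and the displaced library.

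**Figure D1:**
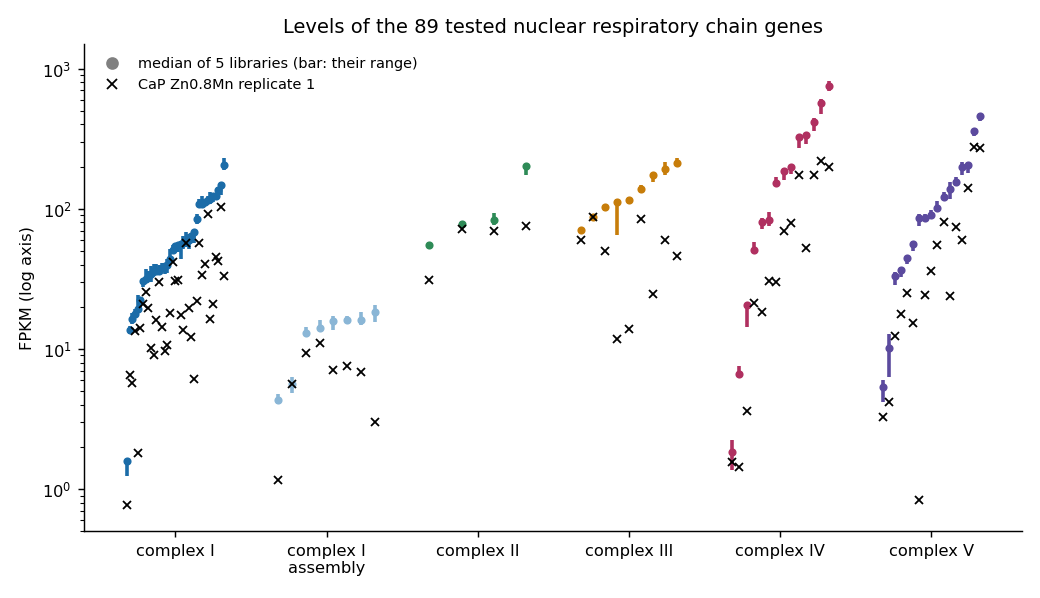
FPKM (log axis) of the 89 tested nuclear respiratory chain genes by complex, 1 column per gene in order of level. Dots are the median of 5 libraries with a bar over their range, and crosses are CaP Zn0.8Mn replicate 1; Cox8a at 758 FPKM is the highest dot, the bars are short, and most crosses lie below their dot.

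Between the 5 libraries the genes differed little. The highest CPM of a gene was at the median 1.18 times its lowest, and 3 genes exceeded a ratio of 1.5, namely Atp5g1 (2.0), Uqcrb (1.80) and Cox4i2 (1.65). Against the mean of the other 4 of these libraries, the median log2 difference was -0.11 in CaP Zn replicate 1, 0.04 in CaP Zn replicate 2, 0.06 in CaP Zn0.8Mn replicate 2, 0.06 in CaP Zn0.8Mn0.1Li replicate 1 and -0.01 in CaP Zn0.8Mn0.1Li replicate 2. No gene differed by more than 2-fold in any of them. CaP Zn replicate 1 was nevertheless low for 79 of the 89 genes, and this small offset returns in the comparisons below. Cytosolic ribosomal protein genes were low there as well, with a median of -0.22 and 77 of 80 below the other libraries, and its part in the offset was not tested.

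CaP Zn0.8Mn replicate 1 was of another order. On log2(CPM + 0.5), the median of the 89 genes lay at -1.27 against the mean of the other 5 libraries, with 87 genes below it, against 49.8% of all tested genes, and 2 above. There 55 of the 89 were over 2-fold lower (61.8%), against 14.6% of all tested genes, and 0 were over 2-fold higher, against 13.3%. Together the 95 genes summed to 7894 CPM there and to between 14264 and 15970 CPM in the others, a ratio of 0.512 to their mean. These values are from 1 library and have no test.

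**Figure D2:**
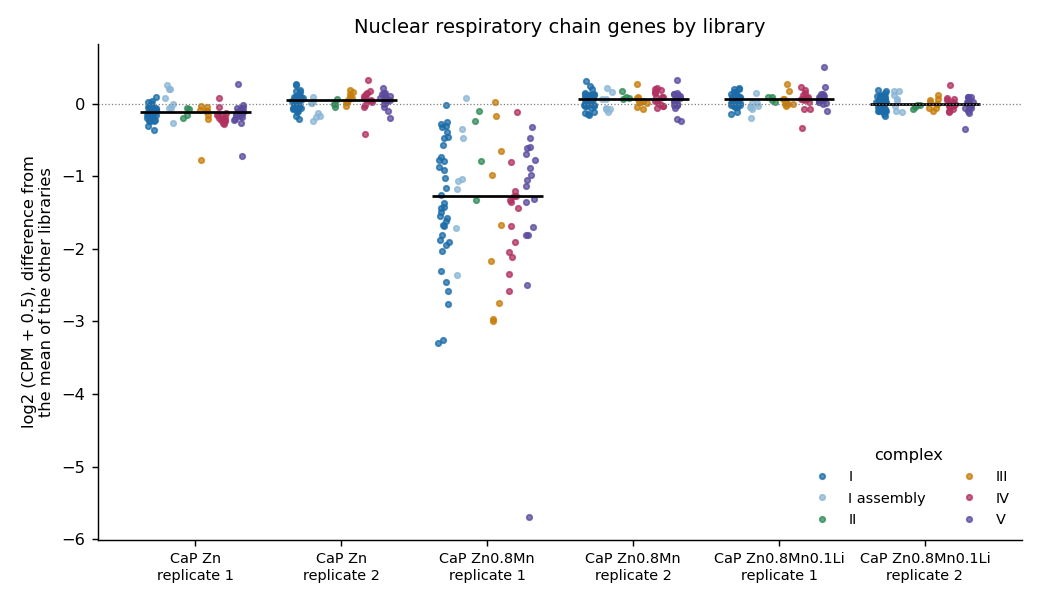
Log2(CPM + 0.5) of each tested gene in each library minus the mean of the other libraries, coloured by complex. For CaP Zn0.8Mn replicate 1 the others are 5 libraries and for the rest the 4 without it; black lines are medians. Its genes spread from 0.08 down to -5.70 around a median of -1.27, while the other medians lie between -0.11 and 0.06.

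The lowering was unequal within every complex. Atp5k, the e subunit of the ATP synthase, which takes part in its dimers, was the extreme. It had 8 counts in that library and 716 in CaP Zn0.8Mn replicate 2. Its levels were 52.3 and 57.4 CPM in the zinc group, 0.529 and 46.3 in the manganese group, and 53.6 and 55.7 in the lithium group, so that 5 libraries lay close together and 1 stood near the floor. The gene lies at chr5:108433244-108434448 in GRCm38. Ndufa3, an accessory subunit of complex I, was at 59.3 and 66.3 CPM in the zinc group, 6.41 and 69.8 in the manganese group, and 70.8 and 71.0 in the lithium group. Ndufa12, another accessory subunit, was at 33.5 and 28.9, at 2.91 and 38.1, and at 29.5 and 30.4 CPM in the same order. In both, the lowest library by far was again CaP Zn0.8Mn replicate 1.

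At the other end stood Uqcrc2, a core protein of complex III, with 220 and 227 CPM in the zinc group, 229 and 237 in the manganese group, and 224 and 217 in the lithium group. Its displaced library lay within 0.03 log2 units of the mean of the others. Ndufv2, an iron-sulfur subunit of complex I, was at 124 and 132, at 127 and 146, and at 125 and 116 CPM, a difference of -0.02. Ndufaf7, an arginine methyltransferase needed to assemble complex I, was at 22.2 and 17.5, at 20.4 and 19.8, and at 17.1 and 19.9 CPM, a difference of 0.08. In these 3 genes the displaced library lay inside the range of the other 5.

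By complex, the median difference of that library was -1.43 for the 37 tested genes of complex I (23 over 2-fold lower), -1.05 for the 8 assembly genes (5), -0.52 for the 4 genes of complex II (1), -1.68 for the 9 of complex III (5), -1.40 for the 14 of complex IV (12) and -1.05 for the 17 of complex V (9). Ndufa4 was counted with complex I by its name. Without it that complex had a median of -1.40 over 36 tested genes, with 22 over 2-fold lower. In complex II the 1 gene over 2-fold lower was the anchor Sdhd. It was at 216 and 249 CPM in the zinc group, 95.9 and 252 in the manganese group, and 253 and 238 in the lithium group. The other anchor, Sdhc, lay at -0.80 and the iron-sulfur subunit Sdhb at -0.25. The catalytic Sdha, at 314 and 325, at 303 and 342, and at 330 and 318 CPM, differed by -0.10 log2 units. The same contrast of large against small subunits was seen in complex III, where the core proteins Uqcrc1 (-0.18) and Uqcrc2 (0.03) stood against Uqcrb (-3.0) and Uqcr11 (-2.97), both small.

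Within complex I the flavoprotein subunit Ndufv1 lay at -0.80 and the iron-sulfur subunits Ndufs1 at -0.39 and Ndufs7 at -0.78. The acyl carrier Ndufab1 lay at -1.02 and the small accessory subunit Ndufa1 at -2.76. Other accessory subunits were lowered less than any of these, among them Ndufa9 (-0.25) and Ndufa10 (-0.28). In complex III Uqcrh, the hinge protein beside cytochrome c1, lay at -1.68, and in complex IV Cox5a, a matrix-side subunit, at -1.43. In complex V the head subunits Atp5a1 (-0.32) and Atp5b (-0.70) stood toward the upper end. Stalk subunits ran from Atp5c1 (-0.47) and Atp5h (-0.59) to Atp5o (-1.81) and Atp5e (-2.5). Of the membrane subunits Atp5j2 lay at -0.78, Atp5g2 at -1.05, Atp5g3 at -1.81 and Atp5k at -5.70, so stalk and membrane subunits overlapped. Cox8a, the most abundant transcript of the set per length, was at 383 and 450 CPM in the zinc group, 111 and 410 in the manganese group, and 430 and 417 in the lithium group.

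Many of these subunits are very small proteins. The median length of the principal coding sequence was 438 bases over the 89 genes and 1362 over all tested genes with a protein-coding transcript. That of the whole transcript was 875 against 2973. In CaP Zn0.8Mn replicate 1 the difference from the other libraries followed coding length across the 89 genes with a Spearman rho of 0.73 (Pearson r = 0.66), and transcript length with a rho of 0.64. Across 10951 protein-coding genes the rho was 0.43 with coding length and 0.47 with transcript length. All points come from 1 library set against the same 5, genes are not independent replicates, and the values are a description only. In the other 5 libraries the rho with coding length over the 89 genes lay between -0.38 and 0.31. The highest was that of CaP Zn replicate 1, where the rho across the 10951 genes was 0.22. The lowest was that of CaP Zn0.8Mn0.1Li replicate 2, where it was -0.01.

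Genes of like coding length were set side by side. With coding sequences under 250 bases, the 16 respiratory chain genes had a median of -2.06 and 125 other genes -1.23. Between 250 and 400 bases, the medians were -1.74 for 22 genes and -0.93 for 437 others, and between 400 and 600 bases -1.16 for 25 and -0.58 for 868. From 600 to 1000 bases they were -0.61 for 13 and -0.32 for 2098. From 1000 to 1500 bases 9 genes had -0.28 and 2505 others 0.01. From 1500 to 3000 bases 4 genes had -0.36 and 3385 others 0.24. The respiratory chain genes lay lower at the median in each of these 6 classes. By transcript length the size of the gap varied. From 500 to 750 bases 31 of them had -1.44 and 198 other genes -1.23. From 3000 bases upward 5 had -0.87 and 5414 others 0.37. Such lowering was not particular to the respiratory chain genes. The 80 tested cytosolic ribosomal protein genes, with a median coding length of 454.5 bases, had a median of -1.22, near the -1.27 of the 89 genes. Whether RNA quality or library preparation had a part was not tested.

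**Figure D3:**
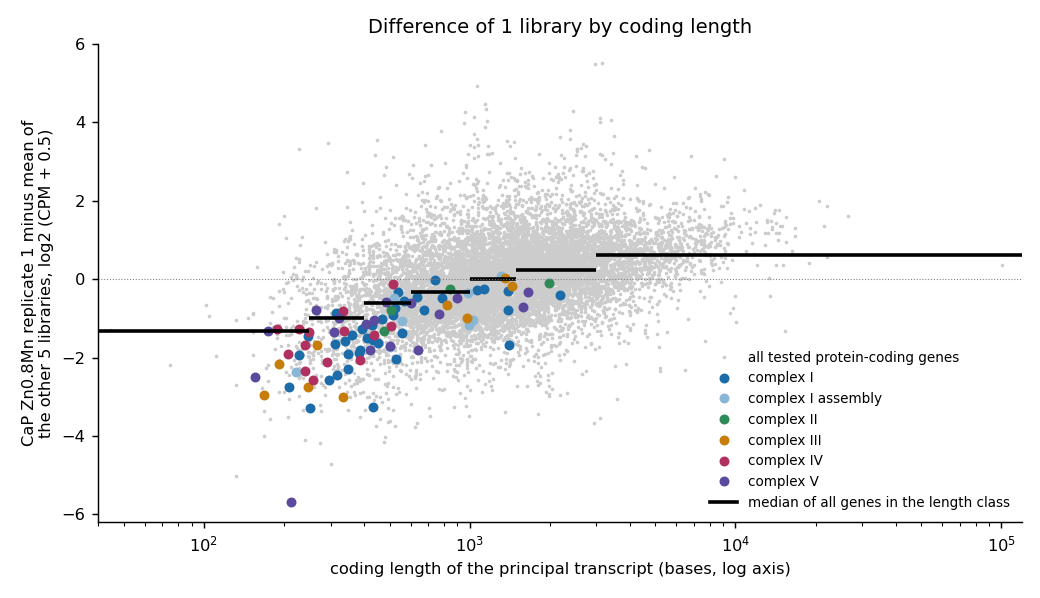
Difference of CaP Zn0.8Mn replicate 1 from the mean of the other 5 libraries (log2 of CPM + 0.5) against coding length (log axis). Grey points are all tested protein-coding genes, coloured points the respiratory chain genes by complex and black bars the median of all genes in each length class. Both sets run lower toward short coding sequences, and most coloured points lie below the bars.

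Companion genes of the chain differed in direction in that library. The mitochondrially encoded subunits went the other way, with a median of 3.45 and 12 of 12 over 2-fold higher. The medians of the nuclear subunits of complexes I, III, IV and V lay below 0 there, although single nuclear genes such as Uqcrc2 (0.03) did not. Mitochondrial ribosomal protein genes had a median of -0.90 (35 of 77 over 2-fold lower) and cytosolic ribosomal protein genes, which are also short, -1.22 (51 of 80). Medians of the assembly factors lay between -0.26 for complex I factors without the Nduf name and -0.65 for complex II factors. Cytochrome c and the ubiquinone pathway had -0.68 over 12 genes. The citric acid cycle, whose 13 enzymes have a median coding length of 1362 bases, had -0.18 with 1 over 2-fold lower, and the regulators of these genes, among them Nrf1, Gabpa and Tfam, 0.12 over 11.

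Promoter letters were set beside that library's values. The 19 genes with the NRF1 motif, its sixth base free, had a median difference of -1.27 and the 52 without it -1.43. With CCGGAAG the medians were -1.43 over 18 genes and -1.36 over 53 without it. For the NRF1 palindrome they were -1.05 over 7 genes and -1.43 over 64 without it. For AAGATGG they were -1.27 over 11 and -1.39 over 60.

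The first comparison asked what manganese in the alloy went with. With all 6 libraries, edgeR's quasi-likelihood test called 0 of the 89 genes between the manganese and zinc groups, against 0% of all 13156 genes by the same test. At an unadjusted p under 0.05 it found 0 of the 89, against 1.57% of all genes, and DESeq2 and limma-voom also called 0 of the 89. The median log2 fold change was -0.45 (all genes 0.00), and 82 of 89 lay below 0, against 49.5% of all genes. Medians ran from -0.50 in complex I to -0.13 in complex II. Among genes of at least 5 CPM the lowest values after Atp5k were -0.91 (SE 0.79) for Ndufa1 and -0.84 (SE 0.67) for the accessory subunit Ndufs6, and the highest were 0.09 for Ndufv2, 0.08 for Atp5g1 and 0.06 for Uqcrc2. Groups without overlap between libraries were lower in the manganese group for 8 genes, against 12.8% of all genes, and higher for 1, against 12.5%, so the large majority of these genes overlapped between the groups.

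Without CaP Zn0.8Mn replicate 1 the sign of the median turned. It became 0.08, with 68 genes above 0 (all genes 48.2%) and 21 below (51.8%), and with 1 library left in the manganese group, which the fit assumes to vary like the others. Medians then ran from -0.03 in the assembly genes of complex I to 0.12 in complex IV. The lowest values among genes of at least 5 CPM were -0.33 (SE 0.24) for Atp5s, a coupling factor of the ATP synthase, -0.24 for Atp5k and -0.17 (SE 0.13) for Ndufv3, an accessory subunit of complex I. edgeR then called 0 of the 89 (0.0152% of all genes called), and 3 had an unadjusted p under 0.05, against 4.33% of all genes. All 3 were higher in the manganese group, namely Atp5g1, Cox6a2 and Sdhb, with adjusted p of 0.967 each. The remaining library lay above both zinc group libraries for 44 genes, against 32% of all genes, and below both for 8, against 32.8%. With CaP Zn0.8Mn replicate 2 left out in its place, edgeR called 79 of the 89, against 59.3% of all genes, and the median was -1.29. That fit sets the displaced library alone against the zinc group, with no spread of its own group, so its calls describe 1 library. The direction in the manganese group thus depended on which of its 2 libraries was used. Against the other 4 libraries without the displaced one, the remaining manganese group library had a median of 0.06. CaP Zn replicate 2 had 0.04 and CaP Zn replicate 1 -0.11. The part of the low CaP Zn replicate 1 in the median of 0.08 was not tested.

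Atp5k depended on the displaced library in size, though not in sign. Its log2 fold change of the manganese over the zinc group was -1.23 (SE 1.43) with all libraries, edgeR adjusted p of 0.773, and -0.24 (SE 0.12) without the displaced library, adjusted p of 0.967. limma-voom, which averages logarithms, gave -3.41 with all libraries, adjusted p of 0.721, and -0.24 without the displaced one.

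The second comparison, of the lithium with the zinc group, holds no library of the manganese group and so no displaced one, although the fit over 6 libraries shares its spread. edgeR called 0 of the 89 genes, against 0% of all genes, with 0 at an unadjusted p under 0.05 (all genes 0.22%), and DESeq2 and limma-voom called 0 as well. The median was 0.05 and 69 of 89 lay above 0 (all genes 50%), a count that was 46 with library totals only as the scaling, where the median was 0.01. Libraries did not overlap for 18 genes that were higher in the lithium group, against 16.7% of all genes, and for 2 that were lower, against 16.8%. Leaving out CaP Zn replicate 1, the library with the small offset, put the median at -0.02 with 37 genes above 0, and leaving out CaP Zn replicate 2 put it at 0.12 with 80. The small positive median thus rested on 1 zinc group library.

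With the displaced library removed from the shared spread, edgeR still called 0 of the 89 (0% of all genes) and 2 had an unadjusted p under 0.05, against 5.02% of all genes. Those were Atp5g1 and Cox6a2. Both were higher in the lithium group. The lowest values among genes of at least 5 CPM were -0.18 (SE 0.19) for Atp5s, -0.14 (SE 0.13) for Ndufaf1, an assembly factor of complex I, and -0.10 (SE 0.15) for Ndufaf7. The 4 genes of complex II lay between 0.02 and 0.09.

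Atp5g1, which lies at chr11:96068852-96075670 in GRCm38, had the largest difference of the set in this comparison. It was at 31.6 and 42.5 CPM in the zinc group, at 21.3 and 56.8 in the manganese group, and at 63.2 and 50.02 in the lithium group. Both zinc group libraries lay below both lithium group libraries, while the manganese group libraries fell on either side. Group means were 37.0 ± 7.68 CPM in the zinc group and 56.6 ± 9.29 in the lithium group (SD, n = 2). The log2 fold change was 0.61 (SE 0.48, edgeR adjusted p of 1.00) with 6 libraries and 0.62 (SE 0.14, adjusted p of 0.486) without the displaced one. In edgeR it did not pass the threshold in either fit.

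The 2 other genes for the same mature c subunit did not share this order. Atp5g2 was at 248 and 285 CPM in the zinc group, at 128 and 262 in the manganese group, and at 275 and 255 in the lithium group. Atp5g3 was at 185 and 202, at 54.2 and 190, and at 180 and 201 CPM. Apart from CaP Zn0.8Mn replicate 1, low in both, the groups overlapped for these genes.

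Cox6a2, the heart and muscle form of a complex IV subunit, at chr7:128205435-128206387, was at 10.6 and 9.79 CPM in the zinc group, at 2.51 and 14.2 in the manganese group, and at 14.2 and 14.5 in the lithium group. The lithium group libraries lay above both zinc group libraries, and so did the second manganese group library. The log2 fold change of the lithium over the zinc group was 0.50 (SE 0.73, edgeR adjusted p of 1.00), and 0.49 (SE 0.16, adjusted p of 0.751) without the displaced library. Summed muscle markers lay between 0 and 0.302 CPM. The common form Cox6a1 was at 340 and 427 CPM in the zinc group, at 157 and 403 in the manganese group, and at 401 and 408 in the lithium group, where the zinc group libraries spanned those of the lithium group.

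Uqcrb, a small subunit of complex III that helps bind ubiquinone, had the lowest value of the set in CaP Zn replicate 1, -0.78 against a median of -0.11. It was at 57.3 and 97.9 CPM in the zinc group, at 10.6 and 103 in the manganese group, and at 103 and 91.1 in the lithium group. CaP Zn replicate 1 was low and replicate 2 lay among the others. The log2 fold change of the lithium over the zinc group was 0.32 (SE 0.94, edgeR adjusted p of 1.00), and -0.01 without CaP Zn replicate 1.

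**Figure D4:**
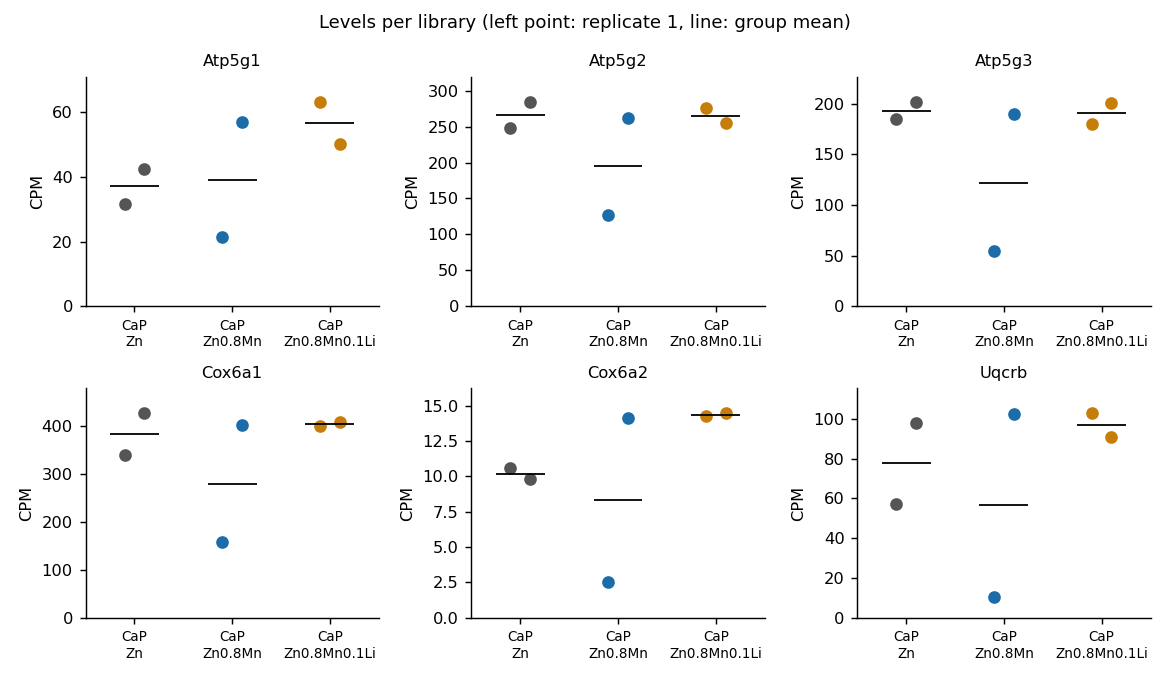
CPM of Atp5g1, Atp5g2, Atp5g3, Cox6a1, Cox6a2 and Uqcrb in each library, axes from 0, with the left point of each pair replicate 1 and the line the mean of 2 libraries. CaP Zn0.8Mn replicate 1 is the lowest point in each panel, Atp5g1 and Cox6a2 are higher in both lithium group libraries than in both zinc group libraries, and Uqcrb is split within the zinc group.

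The third comparison set the lithium against the manganese group, alloys that differ in lithium. It shares the manganese group libraries with the first comparison and the lithium group libraries with the second. edgeR called 0 of the 89 genes with 6 libraries, against 0% of all genes, with 0 at an unadjusted p under 0.05 (all genes 2.4%), and DESeq2 and limma-voom called 0 of the 89. The median was 0.49 (all genes 0.00) with 85 above 0, against 49.9% of all genes, and 4 below, against 50.1%. Libraries did not overlap for 24 higher genes (all genes 17.1%) and for 2 lower (17.5%). Medians ran from 0.18 in complex II to 0.69 in complex III. Among genes of at least 5 CPM the highest values after Atp5k were 0.94 (SE 0.79) for Ndufa1 and 0.90 (SE 0.95) for Ndufa3, and the lowest was -0.18 (SE 0.17) for Ndufv2.

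Without CaP Zn0.8Mn replicate 1 the median was -0.01 with 42 genes above 0 (all genes 49.6%) and 47 below (50.4%), and 0 were called (0.0152% of all genes). Medians then ran from -0.06 in complex II to 0.01 in complex I. At an unadjusted p under 0.05 there were 2, against 3.16% of all genes, both lower in the lithium group. Its libraries lay above the remaining one for 24 genes (all genes 33.5%) and below it for 32 (34.4%). Ndufv2 had a log2 fold change of -0.28 (SE 0.10) and Ndufa12 one of -0.35 (SE 0.14), with edgeR adjusted p of 1.00. Without CaP Zn0.8Mn replicate 2 instead, 79 of the 89 were called, against 61.5% of all genes, with a median of 1.36. That fit again sets the displaced library alone against the lithium group, with no spread of its own group. For Atp5k the log2 fold change was 1.22 (SE 1.43) with all libraries, edgeR adjusted p of 0.695, and 0.24 (SE 0.12) without the displaced library. The plot of fold changes shows both settings side by side.

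**Figure D5:**
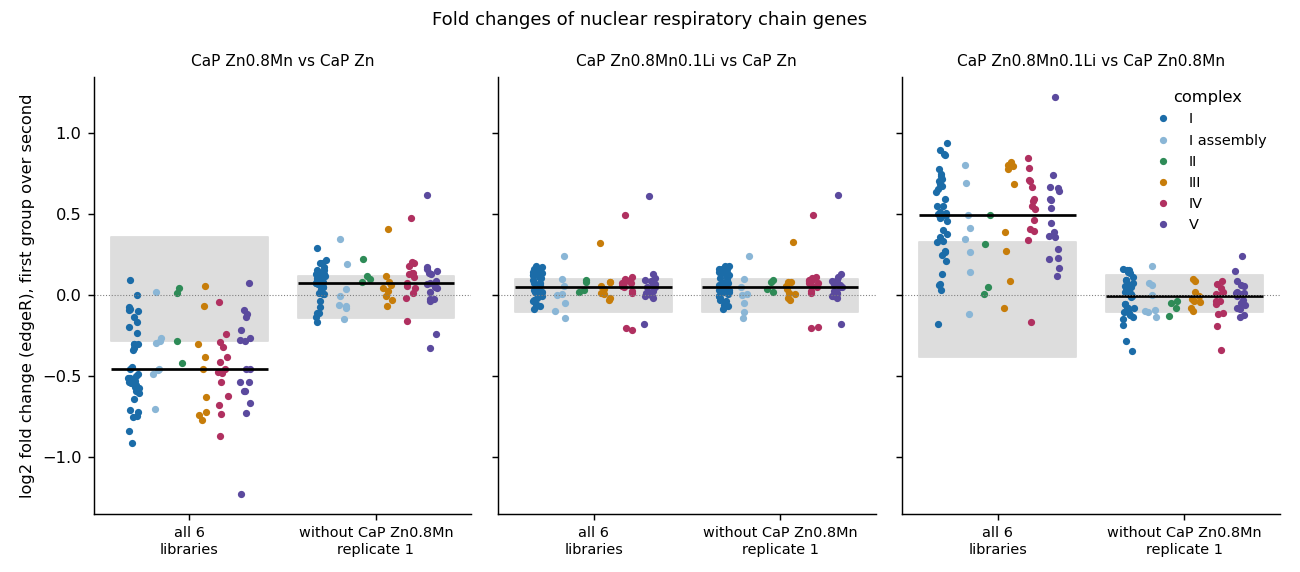
Log2 fold changes (edgeR, first group over second) of the 89 genes in the 3 comparisons, with all 6 libraries and without CaP Zn0.8Mn replicate 1. Colours are complexes, black lines the medians of the 89 genes and grey bands the middle 50% of all 13156 tested genes. Medians of -0.45 and 0.49 in the comparisons that use the manganese group become 0.08 and -0.01, and the comparison without that group keeps a median of 0.05.

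Of the 89 genes, 13 overlap another gene that had at least 10% of their CPM by the deposited coordinates. Among them are Ndufb2, Ndufa2, Ndufa3, Ndufs1, Ndufs6 and Ndufaf2, all named above. Their counts may hold reads of the neighbour, since no source used here states how reads were counted or whether strand was used. The table also lists 13 entries with names of the family that are not protein coding, and 2 of them averaged at least 5 CPM outside the displaced library. Ndufb1-ps, annotated as a noncoding transcript at a shared promoter, had 878 and 852 counts in the zinc group, 213 and 736 in the manganese group, and 883 and 880 in the lithium group, with the same low library. Ndufab1-ps, a pseudogene of the acyl carrier subunit Ndufab1, had 357 and 249, 97 and 291, and 307 and 311 counts, and reads of Ndufab1 cannot be told apart from it with certainty.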

How the data were processed

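The authors deposited whole-number read counts and FPKM values per gene for the 6 libraries. The FPKM values are counts divided by gene length and library size, per the file headers and the values. Per the labels' protocols, polyadenylated RNA was taken up in TRIzol and made into libraries with an Illumina TruSeq kit. How reads were aligned and counted is not given in the sources used here. Build mm9 is named, per the submitters' processing notes, yet 89 of the 95 genes have the exact start and end of GENCODE M21 (GRCm38) in the deposited table, so positions are printed as GRCm38. The tables hold 0 columns of other samples.

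Counts were tested with edgeR 4.0.16 (R 4.3.3) by the robust quasi-likelihood test, with TMM scaling, filterByExpr and a group-means model over all 6 libraries, leaving 3 residual degrees of freedom. P-values are two-sided and adjusted after Benjamini-Hochberg over 13156 genes and a threshold of 0.05. Fits without a library kept the same genes. Alternatives were RLE scaling, library totals, DESeq2 1.42.0, limma-voom (limma 3.58.1), no filter, a replicate block, mitochondrial genes left out, log2(FPKM + 1) and log2(FPKM + 0.1) for genes of mean FPKM at least 1, and each library left out. DESeq2 and limma-voom without CaP Zn0.8Mn replicate 1 were added after seeing the data. Coding lengths come from the GENCODE M21 principal transcripts. Differences of a library use log2(CPM + 0.5).

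The genes and all lists were chosen with earlier results of these data known, so lists are described by counts and medians. Genes named whatever their value were core, isoform and c subunit genes. Some core genes of complex I are not reported here. Others were named from the highest and lowest of each complex, the 3 most displaced either way in a library standing apart, and the 3 largest differences either way per comparison, among genes of at least 5 CPM. Further genes were named after their values were seen, among them Uqcr11, Atp5e, Atp5o, Atp5h, Ndufs5 and Ndufaf4.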

Additional observations from a re-analysis of the deposited data

How the results depend on the processing

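Leaving out 1 library at a time, the called count ran from 0 to 79 in both comparisons that use the manganese group, with 79 only when CaP Zn0.8Mn replicate 2 was left out. It was 0 in every such fit of the lithium against the zinc group. The fit with 79 calls sets the displaced library alone against the other groups, so those calls describe 1 library. The medians ran from -1.29 to 0.075 for manganese against zinc, from -0.0088 to 1.36 for lithium against manganese and from -0.017 to 0.12 for lithium against zinc. No other setting moved a count of called genes from 0. The log2 fold change of Uqcrb, lithium over zinc group, was 0.32 and ran from -0.014 without CaP Zn replicate 1 to 0.76 without CaP Zn replicate 2, and the cause was not tested. Atp5k, not called otherwise, was called without CaP Zn0.8Mn replicate 2 in both comparisons that use it. Deviations of replicate 1 from its group mean correlated between groups at 0.29, -0.19 and -0.10. Each group gives a single such deviation per gene, and the displaced library supplies that of the manganese group. These values therefore cannot decide whether replicate numbers pair the libraries. With a replicate block, fitted with all 6 libraries, the medians were -0.55, 0.07 and 0.61 and the called counts 0. With 2 libraries a group, of which 1 is displaced, the fit's spread is wide (biological coefficient of variation 0.307, and 0.081 without that library), so an uncalled gene is not shown to be unchanged.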

Other observations

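Among complex IV assembly factors, 17 of 20 were tested, and their medians in the comparisons were not described above. For the manganese against the zinc group the median was -0.30 with all libraries and 0.05 without CaP Zn0.8Mn replicate 1, with 0 called by edgeR in both. For the mitochondrially encoded subunits the same medians were 2.54 and -0.07, with 0 of 12 called. At an unadjusted p under 0.05 there were 4 of the 12 with all libraries, against 1.57% of all genes, and 2 without that library, against 4.33%. For the lithium against the zinc group, 11 of these 12 lay below 0 with a median of -0.26 (50% of all genes lay below 0), and without CaP Zn0.8Mn replicate 1 edgeR called 0 of them and 6 had an unadjusted p under 0.05 (5.02% of all genes), while the nuclear genes of the same complexes had a median of 0.05. That nuclear median is over all 89 genes, complex II among them. Against the other 4 libraries without CaP Zn0.8Mn replicate 1, the mitochondrially encoded subunits had medians of 0.23 and 0.04 in CaP Zn replicates 1 and 2. The nuclear genes had -0.11 and 0.04 there, so CaP Zn replicate 1 was high for the former and low for the latter. The difference between the medians of -0.26 and 0.05 was not tested.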
